A study of Mus musculus with 9 samples.

Results

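The genes described here encode actin and the proteins of the actin cytoskeleton and cell cortex: the 2 cytoplasmic actins, the proteins that bind, assemble, cap, sever and crosslink actin filaments, non-muscle myosin, the linkers from filaments to the membrane, and the small GTPases with their exchange factors. They were chosen by gene symbol from a list of 52, and all 52 were found among the 16500 genes of the deposited expression table. The expression data are from RNA sequencing of primary CD4+ T cells of C57BL/6 mice, transduced by retrovirus and kept in RPMI-1640 medium with serum. There were 3 groups of 3 libraries: cells with a control vector (labelled Control), cells with a vector for NFAT2-CA (labelled NFAT2_CA) and cells with a vector for NFAT2-CARIT (labelled NFAT2_CARIT). Nfatc1 is the gene of the transcription factor NFAT2. The CA form is constitutively active, so it does not need the calcium signal that normally sends NFAT to the nucleus, and the RIT form carries changes known to impair its cooperation with AP-1 on DNA. Every group, Control included, went through retroviral transduction. The labels give neither the age nor the number of mice, the time after transduction or the share of cells that carried a vector, and do not tie replicates to mice or to cultures. A p-value here therefore measures spread between libraries, which may be technical.

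Actin monomers add to the growing ends of filaments and leave at the other ends. Profilin and the thymosins hold the pool of monomers, the Arp2/3 complex starts branches from existing filaments, formins and Ena/VASP proteins lengthen unbranched filaments, capping protein stops growth, and cofilin with its partners takes filaments apart. In T cells this network shapes the immune synapse, the front and the rear of a migrating cell and the anchoring of integrins and receptors in the membrane. Several haematopoietic members, among them Coro1a, Was, Dock2, Dock8, Rac2 and Rhoh, are known from inherited immune deficiencies. Transcription of many actin genes is itself tied to the actin pool, through serum response factor and its coactivators of the myocardin-related family, which bind free actin monomers.

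Levels are given in CPM, in which each library is brought to the same total, and a difference between groups is a log2 fold change on log2(CPM + 1), given ± its SE, with adjusted p-values taken from a limma fit over all 9 libraries (3 per group). A gene was called at an adjusted p under 0.05. Library depth, estimated from the steps of low values, was 19854000 to 38108000 reads, so 10 CPM stands for 199 to 381 reads. All 52 genes reached 10 CPM in at least 3 libraries and were tested, among 9233 genes in all. Vcl reached that level only in the NFAT2 libraries, the groups where it is high, and the counts of rises below include it. Control replicate 3 stood somewhat apart from the other Control libraries (median chi-square per gene 4.71 and 4.84 against them, and 1.38 between those). Counts are therefore also given without it. NFAT2-CA replicate 3 (2.86 and 3.13, beside 1.47) and NFAT2-CARIT replicate 1 (2.5 and 3.44, beside 1.9) stood apart less on that median. By the mean chi-square per gene, NFAT2-CA replicate 3 (39.65 and 30.48) stood apart more than Control replicate 3 (22.26 and 24.27). Nfatc1 was at 188 to 228 CPM in Control, 336 to 395 CPM under NFAT2-CA and 240 to 253 CPM under NFAT2-CARIT. CD4 T cell markers summed to 5030 to 5180 CPM in Control, 6280 to 6710 CPM under NFAT2-CA and 5950 to 6060 CPM under NFAT2-CARIT. Both comparisons with Control share the same 3 Control libraries.

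Most of the actin and cortex genes were lower with either NFAT2 vector. With NFAT2-CA, 33 of the 52 genes fell (63.5%, against 40.5% of all genes tested), 5 rose (9.62%, against 31.6%) and 14 did not pass the test. With NFAT2-CARIT, 32 fell (61.5%, against 43.3%), 8 rose (15.4%, against 32.1%) and 12 did not pass. The median log2 fold change of the 52 was -0.29 with NFAT2-CA and -0.27 with NFAT2-CARIT, beside -0.07 and -0.09 over all genes tested. Without Control replicate 3 the counts were 34 down and 5 up with NFAT2-CA and 33 down and 9 up with NFAT2-CARIT. The rise count with NFAT2-CARIT was 5 without NFAT2-CARIT replicate 3. Counts within the role lists below describe single genes, as these lists are small and were not tested as sets.

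Since these genes are highly expressed, they were also set beside genes of like level. Of the 2272 tested genes that averaged 100 CPM or more over the 9 libraries, 48 were actin and cortex genes. Among these 48, 31 fell with NFAT2-CA (64.6%, against 35.3% of the 2272) and 30 with NFAT2-CARIT (62.5%, against 34.7%). Their rises numbered 4 (8.33%, against 37.3%) and 6 (12.5%, against 40%). The median log2 fold changes were -0.29 and -0.30 for the 48 and 0.00 and 0.02 for the 2272.

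The 30 genes that fell with each vector were Actb, Pfn1, Tmsb4x, Cap1, Cfl1, Coro1a, Coro1c, Cotl1, Arpc4, Arpc5, Actr2, Actr3, Was, Capza1, Vasp, Evl, Diaph1, Myh9, Myl6, Myl12b, Msn, Tln1, Flna, Lcp1, Lsp1, Tpm3, Rac2, Cdc42, Dock2 and Dock8. Wdr1, Vcl, Actn1 and Tpm4 rose with each vector. Actg1 and Capza2 were called lower with NFAT2-CA and higher with NFAT2-CARIT. Another 10 genes passed in neither comparison: Coro1b, Arpc1b, Arpc2, Arpc3, Wasf2, Wipf1, Capg, Rdx, Actn4 and Rhoa. Falls of at least 2-fold were few, 4 with NFAT2-CA (7.69%, against 5.39% of all genes tested) and 5 with NFAT2-CARIT (9.62%, against 7.96%). Rises of that size were limited to Vcl, which passed the filter only through the NFAT2 libraries, in each comparison (1.92%, against 7.93% and 8.37%). No overlap between the libraries compared was seen for 41 of the 52 genes with NFAT2-CA (78.8%, against 73% of all genes tested) and for 40 with NFAT2-CARIT (76.9%, against 76.9%).

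**Figure D1:**
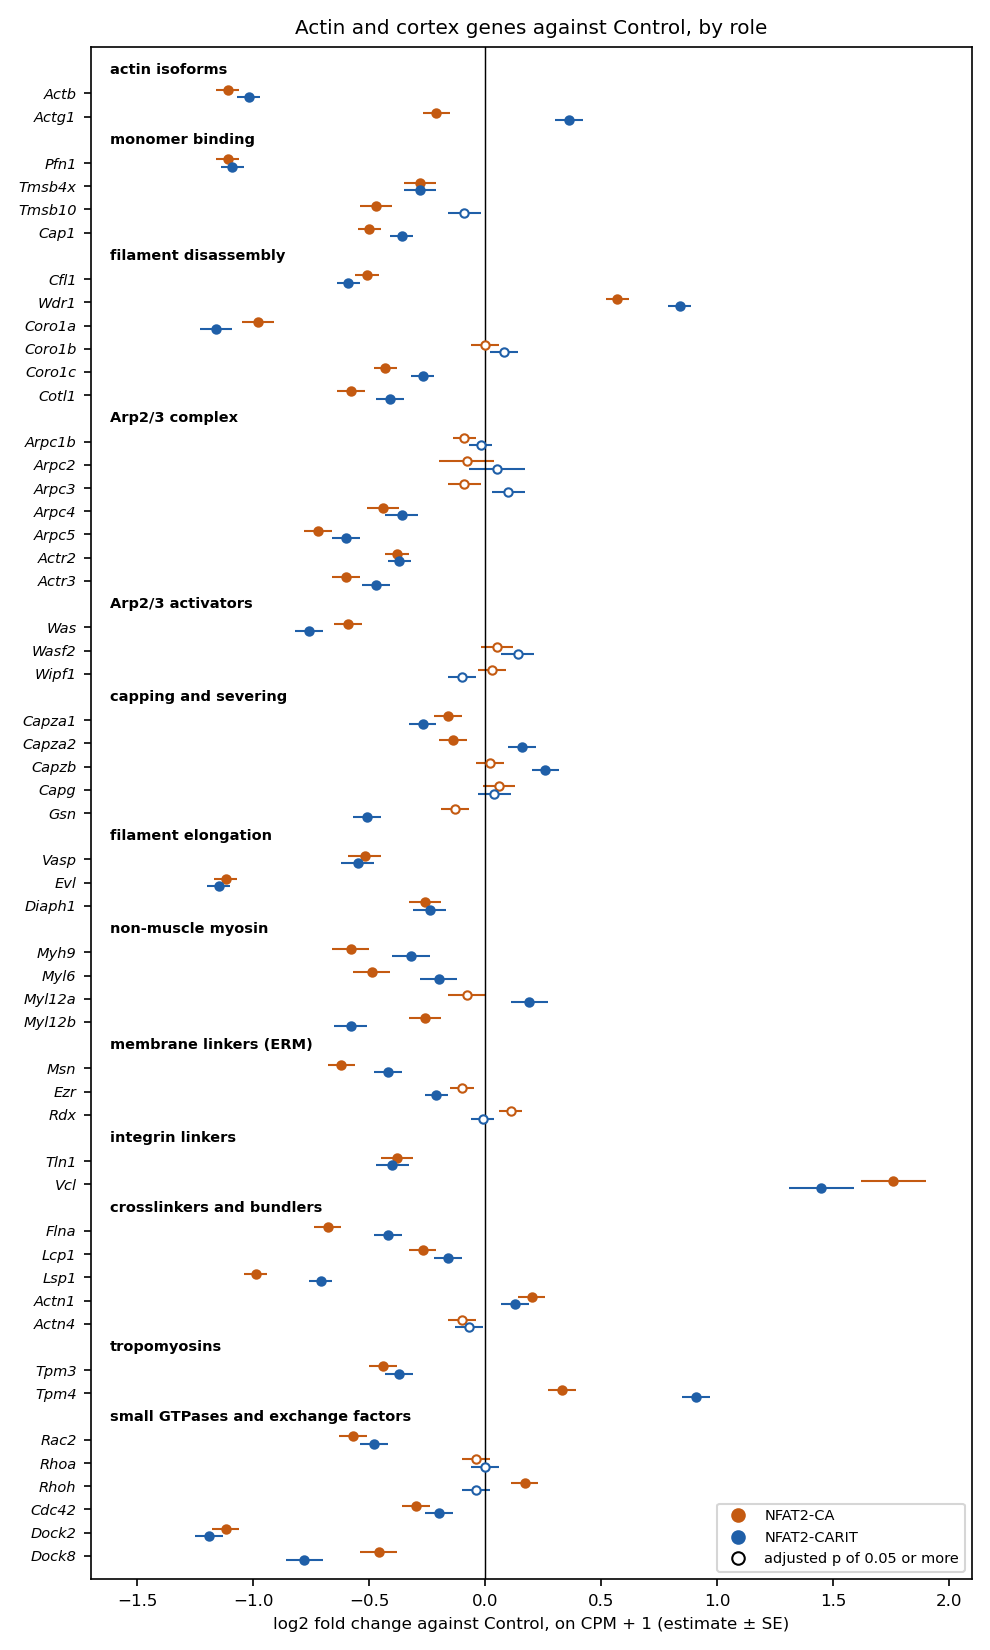
Log2 fold change (x axis, on CPM + 1, estimate ± SE, 3 libraries per group) of each of the 52 genes, grouped by role, for NFAT2-CA (orange) and NFAT2-CARIT (blue) against the same Control libraries. Filled points passed an adjusted p under 0.05; most points lie left of 0, with Vcl at 1.76 and 1.45, Wdr1 and Tpm4 on the right.

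The 52 genes together held less of the library in every NFAT2 sample. Their summed level was 28127, 27640 and 27267 CPM in the Control libraries, which is 2.77% of all counted reads on average. The NFAT2-CA libraries held 20370, 20623 and 19704 CPM (2.02%) and the NFAT2-CARIT libraries 21720, 21797 and 21487 CPM (2.17%). The sums of the 3 groups did not overlap. The fall of the mean sum was 26.9% with NFAT2-CA and 21.7% with NFAT2-CARIT, and it did not rest on Actb alone: without Actb the sum changed by -23.8% and -18.3%. By role, the summed elongation factors changed most with NFAT2-CARIT (-37.5%), the actins most with NFAT2-CA (-42.5%), and the capping and severing genes by -3.78% and 0.921%. In bulk RNA, fewer cells of a type and less RNA per cell cannot be told apart, and CPM gives only a share of the library, not an amount per cell.

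**Figure D2:**
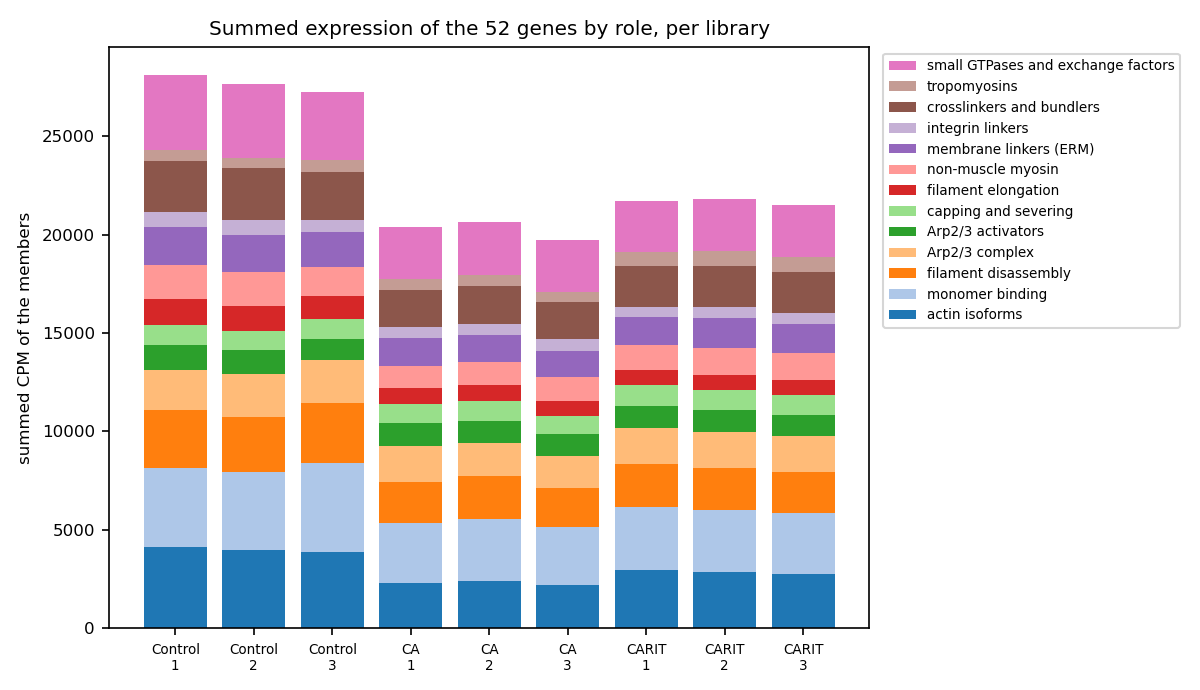
Summed CPM (y axis) of the 52 genes in each of the 9 libraries, stacked by role. The 3 Control bars reach 27267 to 28127 CPM and the 6 NFAT2 bars 19704 to 21797 CPM, and the actin, monomer-binding and GTPase segments account for much of the drop.

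Markers of other cell types moved between the same groups. Of 5 B cell markers 3 were listed, and their sum was 411 to 422 CPM in Control, 206 to 211 CPM under NFAT2-CA and 182 to 204 CPM under NFAT2-CARIT. Nearly all of that was Ighm, while the B cell receptor gene Cd79a stayed at 0.568 CPM or less on average in every group. Of 7 myeloid and dendritic markers 4 were listed, with sums of 38.2 to 42.5, 9.78 to 12.5 and 15.6 to 17.5 CPM. Fcgr3 (means of 28.0, 4.61 and 6.16 CPM) and Itgam (7.98, 0.701 and 1.34 CPM) were lower in both NFAT2 groups, and Cd68 went the other way (4.12, 5.75 and 8.22 CPM). Itgax, at 0.0598, 0.0651 and 1.08 CPM, was highest with NFAT2-CARIT, while Lyz2, Csf1r and Adgre1 were not listed. CD8 T cell markers summed to 12.5 to 13.7, 28.4 to 30.8 and 22.6 to 24.0 CPM. Nearly all of that was Cd8b1, while Cd8a averaged 0.262, 0.485 and 1.69 CPM, highest with NFAT2-CARIT. Nkg7, the only listed one of 4 NK cell markers, was at 8.80 to 10.2, 114 to 121 and 48.0 to 53.6 CPM. None of 5 erythroid and platelet markers was listed, and 2 of 6 fibroblast markers summed to at most 2.20 CPM. Many haematopoietic actin genes are also expressed in B and myeloid cells, and the part of such cells in the values of Coro1a, Lsp1, Rac2, Dock2, Dock8 and the others was not tested.

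Of the 2 cytoplasmic actins, which differ by a few residues at the start of the protein, beta-actin fell by about as much with either vector and gamma-actin did not follow it. Actb (chromosome 5, 142903115 to 142906754, minus strand, GRCm38) was at 2991, 2895 and 2819 CPM in Control, 1324, 1389 and 1332 CPM under NFAT2-CA and 1487, 1400 and 1417 CPM under NFAT2-CARIT. Every NFAT2 library was below every Control library. The fold changes were -1.11 ± 0.05 (adjusted p = 2.6e-11) and -1.02 ± 0.05 (adjusted p = 6.4e-11). Between the vectors Actb differed by 0.09 ± 0.05 (adjusted p = 0.22).

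Actg1 (chromosome 11, 120345690 to 120348542, minus strand) moved in opposite directions with the vectors. It was at 1138, 1098 and 1055 CPM in Control, 971, 991 and 892 CPM under NFAT2-CA and 1453, 1443 and 1337 CPM under NFAT2-CARIT. The 3 groups did not overlap, with NFAT2-CA lowest and NFAT2-CARIT highest. Actg1 fell by 0.21 ± 0.06 with NFAT2-CA (adjusted p = 0.0062), rose by 0.36 ± 0.06 with NFAT2-CARIT (adjusted p = 4.8e-05) and its NFAT2-CARIT level exceeded that of NFAT2-CA by 0.57 ± 0.06 (adjusted p = 3e-06). Each of these calls held under every alternative processing run.

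The ratio of Actb to Actg1 CPM within a library, which does not depend on the scaling of the library, was 2.63, 2.64 and 2.67 in Control, 1.36, 1.40 and 1.49 with NFAT2-CA and 1.02, 0.97 and 1.06 with NFAT2-CARIT. Per kilobase of exon, Control cells held 1080 CPM/kb of Actb and 413 CPM/kb of Actg1, while the NFAT2-CARIT cells held 536 and 531 CPM/kb. Both of these are levels, on CPM per kilobase of merged exon.

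Actg1 reads cannot all be assigned to Actg1. Of its 75-base stretches, 47.8% also occur in the processed pseudogene Gm12715, which the table lists at 1130 ± 41.0, 941.8 ± 63.2 and 1361 ± 31.7 CPM (SD) in Control, NFAT2-CA and NFAT2-CARIT, as high as Actg1 itself. With the listed copies added, Actg1 was at 2335 ± 84.9, 1991 ± 118 and 2912 ± 94.3 CPM, and the fold changes were -0.23 ± 0.06 (adjusted p = 0.0029) and 0.32 ± 0.06 (adjusted p = 0.00018), so both directions were the same as without them. The Actb to Actg1 ratio above counts only reads listed under these symbols and is therefore a ratio of listed values.

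**Figure D3:**
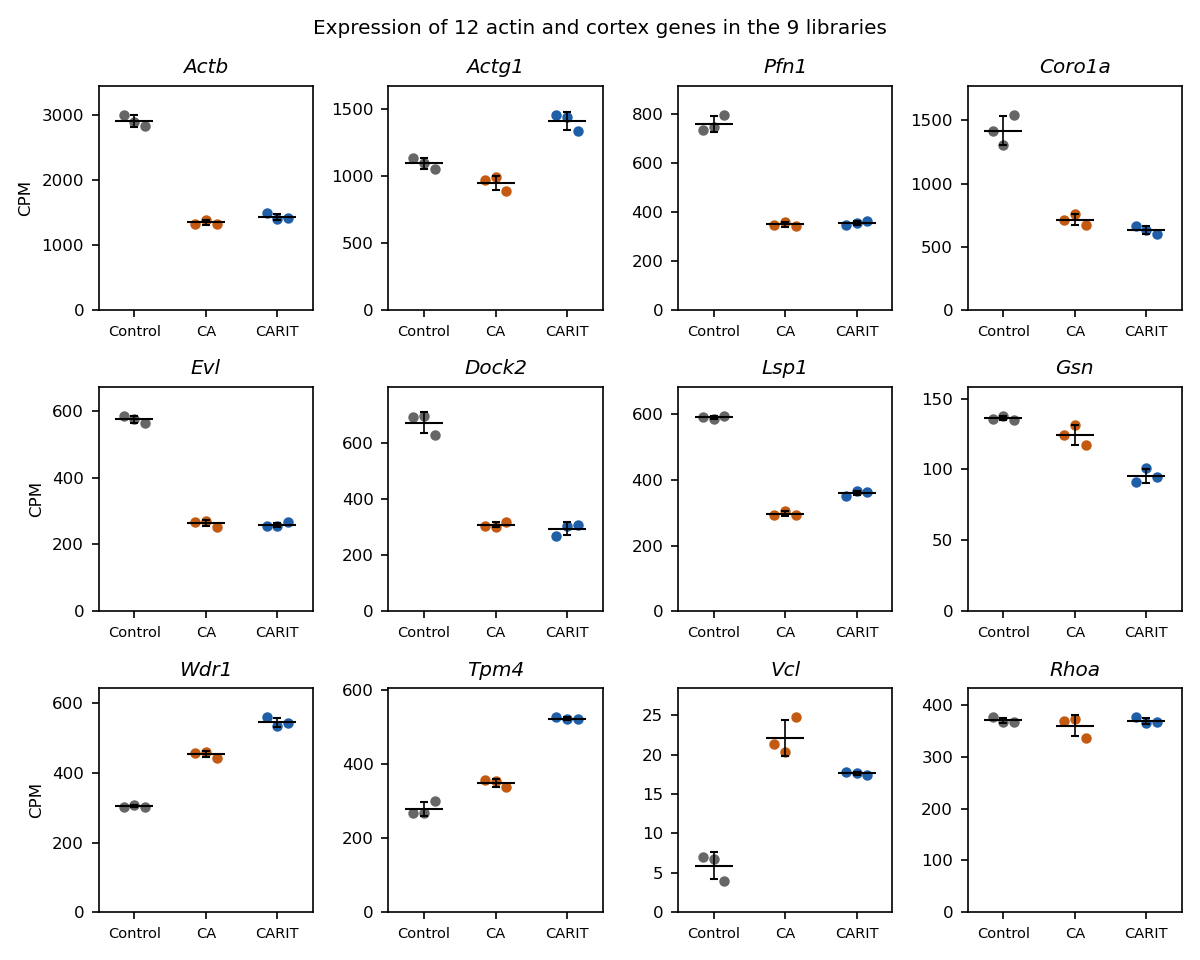
CPM (y axis, from 0) of 12 genes in the 9 libraries; points are libraries, bars the mean ± SD of 3. Actb, Pfn1, Coro1a, Evl, Dock2 and Lsp1 were below Control in every NFAT2 library, Actg1, Gsn and Lsp1 differed between the NFAT2 groups, Wdr1 and Tpm4 climbed from Control to NFAT2-CA to NFAT2-CARIT, and Rhoa did not pass the test.

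The regulatory sequence upstream of some of these genes is shown because serum response factor, through the CArG box, is the factor best known to control actin genes, and the genes that hold the box here did not move together. The RefSeq promoter table on GRCm38.p6 matched 46 of the 52 genes. It has no entry for Actb, Coro1b, Lsp1, Diaph1, Rac2 and Cotl1. A search for the CArG box on both strands, in windows of 250 bases before to 50 after each start, found it in 4 of the 46 genes (8.7%), against 1.8% of all genes of the table (1.6% of 32851 promoters). These were Actg1 (chr11:120348496-120348745, minus strand, box from base -90), Myl6 (chr10:128493010-128493259, minus strand, from -50), Vcl (chr14:20929148-20929397, plus strand, from -227) and Arpc4 (chr6:113377863-113378112, plus strand, from -250, the edge of the window). The 250 bases before each start follow, 5′ to 3′ on the gene's strand, with the CArG box in capitals.
Actg1: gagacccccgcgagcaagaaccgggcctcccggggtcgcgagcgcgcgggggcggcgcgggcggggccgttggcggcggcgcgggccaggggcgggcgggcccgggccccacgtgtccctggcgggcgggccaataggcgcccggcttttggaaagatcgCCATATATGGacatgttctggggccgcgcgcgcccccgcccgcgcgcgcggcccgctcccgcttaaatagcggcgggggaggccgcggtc
Myl6: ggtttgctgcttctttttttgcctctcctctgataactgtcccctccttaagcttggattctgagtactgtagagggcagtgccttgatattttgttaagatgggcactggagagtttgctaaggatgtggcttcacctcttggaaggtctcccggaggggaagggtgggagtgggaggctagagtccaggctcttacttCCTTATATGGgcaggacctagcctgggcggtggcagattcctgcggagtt
Vcl: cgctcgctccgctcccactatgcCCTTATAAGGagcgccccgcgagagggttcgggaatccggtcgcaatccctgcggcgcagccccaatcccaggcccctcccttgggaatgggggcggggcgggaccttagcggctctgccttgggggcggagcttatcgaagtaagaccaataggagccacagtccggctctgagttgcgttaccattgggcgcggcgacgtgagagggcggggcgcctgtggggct
Arpc4: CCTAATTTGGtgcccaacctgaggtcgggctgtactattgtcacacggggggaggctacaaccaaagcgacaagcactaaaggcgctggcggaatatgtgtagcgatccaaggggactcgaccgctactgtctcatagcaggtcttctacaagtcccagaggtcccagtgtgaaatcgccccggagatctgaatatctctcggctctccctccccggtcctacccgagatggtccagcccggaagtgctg

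Against Control, Vcl rose with each vector (1.76 and 1.45), Arpc4 (-0.44 and -0.36) and Myl6 (-0.49 and -0.20) fell with each, and Actg1 went down and up (-0.21 and 0.36). A matching stretch is a description of the letters, not of binding. The NFAT core letters GGAAA, on either strand, were in 59.3% of the 59 promoters of these genes and in 61.3% of all promoters of the table. The AP-1 letters TGANTCA were in 5.1% and 7.8%. The capitals in Actg1 follow closely on 1 GGAAA match, which starts at base -100 and does not overlap the box. Srf itself, which encodes serum response factor, fell by 0.71 ± 0.07 with NFAT2-CA (adjusted p = 1.4e-07) and by 0.58 ± 0.07 with NFAT2-CARIT (adjusted p = 1.3e-06). Its coactivator genes Mrtfa (-0.74 and -0.56) and Mrtfb (-0.62 and -0.45) fell as well. All 3 of 3 genes of that list were thus lower with each vector, against 40.5% and 43.3% of all genes tested.

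The monomer-binding genes all fell with NFAT2-CA (4 of 4, against 40.5% of all genes tested), and 3 of 4 fell with NFAT2-CARIT (against 43.3%). Pfn1 encodes profilin, which feeds monomers to growing filament ends. It was at 736, 748 and 795 CPM in Control, 346, 361 and 345 CPM under NFAT2-CA and 347, 357 and 366 CPM under NFAT2-CARIT. Every NFAT2 library was below every Control library, and the fold changes were -1.11 ± 0.05 (adjusted p = 1.9e-11) and -1.09 ± 0.05 (adjusted p = 2.1e-11).

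Tmsb4x encodes thymosin beta 4, the main protein that keeps monomers out of filaments, and was the most abundant of the 52 per length (1790 CPM/kb in Control). It was at 2356, 2289 and 2723 CPM in Control, 2036, 2101 and 1900 CPM under NFAT2-CA and 2057, 2053 and 1935 CPM under NFAT2-CARIT. The Control libraries were all higher, by a fold change of -0.28 ± 0.07 with each vector (adjusted p = 0.0016 in both). Pfn1 thus changed more than Tmsb4x, and the ratio of Pfn1 to Tmsb4x CPM within a library went from 0.310 ± 0.018 (SD) in Control to 0.174 ± 0.0061 and 0.177 ± 0.01.

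Tmsb10, the related thymosin beta 10, separated the vectors. It was at 335, 312 and 387 CPM in Control, 245, 254 and 242 CPM under NFAT2-CA and 330, 319 and 322 CPM under NFAT2-CARIT. NFAT2-CA was below the other groups, while NFAT2-CARIT overlapped Control. The fold changes were -0.47 ± 0.07 (adjusted p = 1.1e-05) and -0.09 ± 0.07 (adjusted p = 0.27), and the difference between the vectors was 0.39 ± 0.07 (adjusted p = 0.0004). Of its 75-base stretches 26.1% also occur in Gm9844, listed at 641 ± 33.5 CPM in Control. With the listed copies added, NFAT2-CARIT was also called lower than Control (-0.16 ± 0.06, adjusted p = 0.02). Cap1, cyclase-associated protein, which recharges monomers, fell by 0.50 ± 0.05 (adjusted p = 2.5e-07) and 0.36 ± 0.05 (adjusted p = 8.2e-06).

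Among the 6 genes of filament disassembly, 4 fell and 1 rose with each vector (40.5% and 43.3% of all genes tested fell, 31.6% and 32.1% rose). Coro1a encodes coronin 1A, the coronin of blood cells, which bundles filaments and helps cofilin to remove them. It was at 1415, 1304 and 1540 CPM in Control, 715, 759 and 677 CPM under NFAT2-CA and 662, 634 and 605 CPM under NFAT2-CARIT. All 6 NFAT2 libraries lay below the lowest Control library. The fold changes were -0.98 ± 0.07 (adjusted p = 1.7e-09) and -1.16 ± 0.07 (adjusted p = 1.7e-10). The other coronins differed from it: Coro1c fell by 0.43 ± 0.05 (adjusted p = 3.2e-06) and 0.27 ± 0.05 (adjusted p = 0.0003), and Coro1b was at 287 ± 19.3, 288 ± 16.7 and 304 ± 7.75 CPM (SD), with adjusted p = 0.97 and 0.24.

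Cofilin and its helper went in opposite directions. Cfl1, which encodes cofilin 1, the protein that severs old filaments, was at 469, 489 and 496 CPM in Control, 345, 348 and 327 CPM under NFAT2-CA and 330, 309 and 327 CPM under NFAT2-CARIT. Wdr1, whose product speeds up cofilin's disassembly of filaments, was at 302, 307 and 302 CPM in Control, 455, 460 and 443 CPM under NFAT2-CA and 559, 533 and 541 CPM under NFAT2-CARIT. For Cfl1 every NFAT2 library was below Control, and for Wdr1 the 3 groups lay in 3 separate ranges.

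The fold changes of Cfl1 were -0.51 ± 0.05 (adjusted p = 3.7e-07) and -0.59 ± 0.05 (adjusted p = 5.4e-08). Those of Wdr1 were 0.57 ± 0.05 (adjusted p = 3.6e-08) and 0.84 ± 0.05 (adjusted p = 2.6e-10), with 0.27 ± 0.05 between the vectors (adjusted p = 0.00081). The ratio of Wdr1 to Cfl1 CPM rose from 0.627 ± 0.018 (SD) in Control to 1.33 ± 0.021 with NFAT2-CA and 1.69 ± 0.038 with NFAT2-CARIT. Cotl1, coactosin-like protein, a filament binder, fell by 0.58 ± 0.06 (adjusted p = 1.1e-07) and 0.41 ± 0.06 (adjusted p = 5.5e-06).

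**Figure D4:**
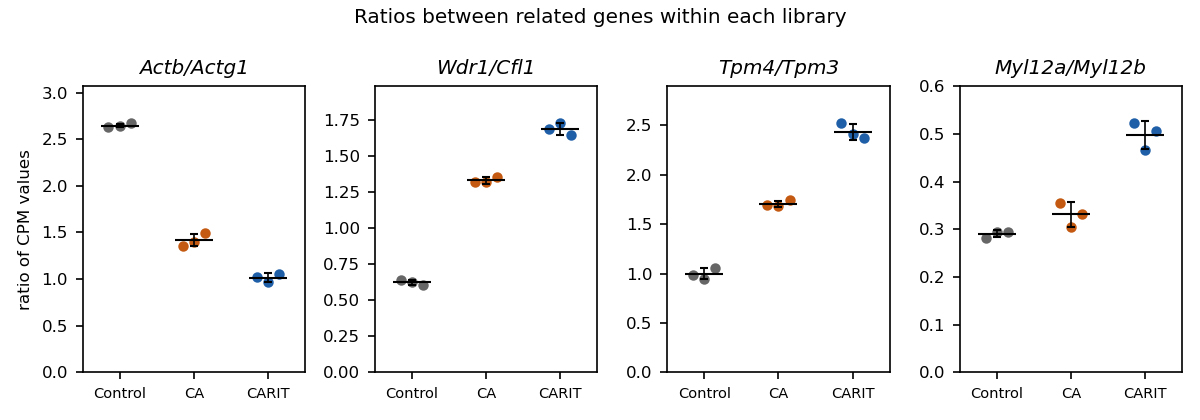
Ratios of CPM values (y axis, from 0) between related genes within each library, with the mean ± SD of 3 libraries per group. Actb to Actg1 went down from 2.65 to 1.42 and 1.02, and Wdr1 to Cfl1, Tpm4 to Tpm3 and Myl12a to Myl12b were highest with NFAT2-CARIT.

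The subunits of the Arp2/3 complex, which nucleates branches, divided into those that fell with each vector (4 of 7) and those that passed with neither (3 of 7). Of all genes tested, 40.5% fell with NFAT2-CA and 43.3% with NFAT2-CARIT. The actin-related subunits Actr2 (-0.38 and -0.37) and Actr3 (-0.60 and -0.47) and the smaller subunits Arpc4 (-0.44 and -0.36) and Arpc5 (-0.72 and -0.60) fell. Arpc5 was at 270, 266 and 306 CPM in Control, 174, 175 and 159 CPM under NFAT2-CA and 184, 189 and 180 CPM under NFAT2-CARIT. No NFAT2 library reached the Control range. Actr3 was at 360, 355 and 399 CPM in Control, 256, 241 and 238 CPM under NFAT2-CA and 262, 264 and 280 CPM under NFAT2-CARIT.

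The Arpc1b, Arpc2 and Arpc3 subunits gave fold changes between -0.09 and 0.10 against Control. Arpc2 varied between replicates more than any other subunit, at 455, 569 and 446 CPM in Control and 564, 434 and 403 CPM with NFAT2-CA. Its SE was 0.12. Whether the 2 sets of subunits differ from each other was not tested.

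The next list holds 3 genes, of proteins that switch Arp2/3 on or bind such a protein. Only Was passed against Control (1 of 3 fell with each vector, against 40.5% and 43.3% of all genes tested). Was encodes the Wiskott-Aldrich syndrome protein of blood cells and was at 179, 177 and 161 CPM in Control, 117, 117 and 108 CPM under NFAT2-CA and 104, 101 and 99.1 CPM under NFAT2-CARIT. The groups did not overlap. Was fell by 0.59 ± 0.06 (adjusted p = 2e-07) and by 0.76 ± 0.06 (adjusted p = 7.2e-09). Wipf1, whose product protects that protein from degradation, was at 691, 679 and 605 CPM, 674, 669 and 669 CPM, and 612, 620 and 601 CPM in the 3 groups in the same order (adjusted p = 0.66 and 0.11). Wasf2, a subunit of the WAVE complex, was at 342 ± 39.3, 352 ± 10.9 and 376 ± 3.52 CPM (SD, adjusted p = 0.55 and 0.083).

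Capping and severing genes changed unequally. Capping protein is a dimer of an alpha subunit, from Capza1 or Capza2, and a beta subunit, from Capzb. Capza1 fell by 0.16 ± 0.06 with NFAT2-CA (adjusted p = 0.019) and by 0.27 ± 0.06 with NFAT2-CARIT (adjusted p = 0.00044). The first call was lost without Control replicate 1 (-0.11, adjusted p = 0.11) or NFAT2-CA replicate 3 (-0.15, adjusted p = 0.055) and under TMM factors over the tested genes (-0.11, adjusted p = 0.099).

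Capza2 was at 151, 138 and 147 CPM in Control, 136, 132 and 127 CPM under NFAT2-CA and 161, 160 and 166 CPM under NFAT2-CARIT. NFAT2-CARIT was above the other groups, and NFAT2-CA was just below Control. Against Control, Capza2 gave -0.14 ± 0.06 (adjusted p = 0.035) and 0.16 ± 0.06 (adjusted p = 0.016), and between the vectors 0.30 ± 0.06 (adjusted p = 0.00069). Both calls against Control were lost without single libraries: the first without Control replicate 1 (adjusted p = 0.13) or 3 (adjusted p = 0.051), without NFAT2-CA replicate 2 (adjusted p = 0.067) or 3 (adjusted p = 0.11) and without NFAT2-CARIT replicate 2 (adjusted p = 0.054), the second without Control replicate 2 (adjusted p = 0.095) or NFAT2-CARIT replicate 3 (adjusted p = 0.057). The first was also lost under TMM factors over the tested genes (-0.08, adjusted p = 0.17), in the fit of only the 6 libraries compared (adjusted p = 0.061) and without trend and robust settings (adjusted p = 0.054), and the second under quantile normalization (0.12, adjusted p = 0.068). For Capza2 the call between the vectors held under every alternative run.

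Capzb rose by 0.26 ± 0.06 with NFAT2-CARIT (adjusted p = 0.00072), with 360 ± 9.38, 366 ± 19.5 and 430 ± 16.7 CPM (SD) in Control, NFAT2-CA and NFAT2-CARIT. Gsn encodes gelsolin, which severs and caps filaments in the presence of calcium. It was at 136, 138 and 135 CPM in Control, 124, 131 and 118 CPM under NFAT2-CA and 91.1, 101 and 94.9 CPM under NFAT2-CARIT. The NFAT2-CARIT libraries were the lowest. Gsn fell with NFAT2-CARIT (-0.51 ± 0.06, adjusted p = 8.8e-07), gave -0.13 ± 0.06 with NFAT2-CA (adjusted p = 0.061), and stood below NFAT2-CA with NFAT2-CARIT, by -0.38 ± 0.06 (adjusted p = 0.00015). Capg, a related capping protein gene, was at 142 ± 5.36, 148 ± 14.9 and 146 ± 7.96 CPM (adjusted p = 0.49 and 0.61).

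All 3 genes of filament elongation fell with each vector (against 40.5% and 43.3% of all genes tested). Evl, of the Ena/VASP family that protects growing ends from capping, was at 583, 576 and 563 CPM in Control, 268, 270 and 253 CPM under NFAT2-CA and 255, 255 and 266 CPM under NFAT2-CARIT. The NFAT2 libraries were far below Control and overlapped each other. The fold changes of Evl were -1.12 ± 0.05 (adjusted p = 1.2e-11) and -1.15 ± 0.05 (adjusted p = 7.5e-12). Its relative Vasp fell by 0.52 ± 0.07 (adjusted p = 3.4e-06) and 0.55 ± 0.07 (adjusted p = 1.8e-06). Diaph1, which encodes the formin mDia1, fell by 0.26 ± 0.07 (adjusted p = 0.002) and 0.24 ± 0.07 (adjusted p = 0.0034).

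In non-muscle myosin II, the motor of the cell rear, the heavy chain and 2 light chains were called lower with each vector. That is 3 of 4 genes, against 40.5% and 43.3% of all genes tested. Myh9, the heavy chain, was at 1444, 1454 and 1162 CPM in Control, 859, 893 and 952 CPM under NFAT2-CA and 1022, 1126 and 1098 CPM under NFAT2-CARIT. Control replicate 3 was the lowest Control library but above all 6 NFAT2 libraries. Myh9 fell by 0.58 ± 0.08 (adjusted p = 6.6e-06) and 0.32 ± 0.08 (adjusted p = 0.0019). The essential light chain Myl6 fell by 0.49 ± 0.08 (adjusted p = 2.9e-05) and 0.20 ± 0.08 (adjusted p = 0.025), and the second call was lost without Control replicate 3 (-0.12, adjusted p = 0.14) or NFAT2-CARIT replicate 2 (-0.18, adjusted p = 0.089). It was also lost under TMM factors (-0.15, adjusted p = 0.081), TMM factors over the tested genes (-0.13, adjusted p = 0.14) and quantile normalization (-0.17, adjusted p = 0.061). In the authors' deposited table Myl6 passed with neither vector (FDR 0.086 and 0.59). Myl6 shares 10.4% of its stretches with the pseudogene Gm5526 and less with others, and with the listed copies added it fell by 0.55 and 0.30.

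The regulatory light chains, from the neighbouring genes Myl12a and Myl12b on chromosome 17, did not move together. Myl12b was at 203, 202 and 226 CPM in Control, 182, 187 and 159 CPM under NFAT2-CA and 142, 141 and 140 CPM under NFAT2-CARIT. Its libraries lay in 3 separate ranges. It fell by 0.26 ± 0.07 (adjusted p = 0.0024) and 0.58 ± 0.07 (adjusted p = 8.1e-07). In the authors' deposited table Myl12b passed only with NFAT2-CARIT (FDR 0.11 with NFAT2-CA and 1.1e-05 with NFAT2-CARIT). Myl12a gave -0.08 ± 0.08 (adjusted p = 0.4) and 0.19 ± 0.08 (adjusted p = 0.036), and the second call was lost without Control replicate 1 (0.15, adjusted p = 0.14) or 2 (0.18, adjusted p = 0.094), without NFAT2-CARIT replicate 1 (0.15, adjusted p = 0.13) or 3 (0.19, adjusted p = 0.076), with no filter (adjusted p = 0.05), without trend and robust settings (adjusted p = 0.058), and with the replicate number as a block (adjusted p = 0.052). The annotation has a second Myl12b transcript model that runs into Myl12a and shares 26.9% of its stretches, so reads of the pair are not fully separable.

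Of the 3 linkers between filaments and membrane proteins, moesin (Msn) fell with each vector and ezrin with NFAT2-CARIT only. That is 1 of 3 and 2 of 3, against 40.5% and 43.3% of all genes tested. Msn was at 1339, 1343 and 1232 CPM in Control, 878, 851 and 825 CPM under NFAT2-CA and 942, 995 and 996 CPM under NFAT2-CARIT. The 3 groups did not overlap. Msn fell by 0.62 ± 0.06 (adjusted p = 6.6e-08) and 0.42 ± 0.06 (adjusted p = 5.7e-06). Ezr, ezrin, gave -0.10 ± 0.05 (adjusted p = 0.11) and fell by 0.21 ± 0.05 with NFAT2-CARIT (adjusted p = 0.0022), while Rdx, radixin, gave 0.11 ± 0.05 (adjusted p = 0.06) and -0.01 ± 0.05 (adjusted p = 0.88). Per kilobase Msn was the most abundant of the 3 in Control, at 206 CPM/kb, with Ezr at 119 and Rdx at 34.4 CPM/kb.

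The integrin linkers moved apart. Tln1 encodes talin, which activates integrins, and fell by 0.38 ± 0.07 (adjusted p = 0.00023) and 0.40 ± 0.07 (adjusted p = 0.00012), from 761, 747 and 621 CPM in Control to 537, 527 and 568 CPM under NFAT2-CA and 505, 552 and 549 CPM under NFAT2-CARIT. Vcl encodes vinculin, which binds talin under tension. It was at 7.07, 6.70 and 4.04 CPM in Control, 21.4, 20.4 and 24.7 CPM under NFAT2-CA and 17.8, 17.7 and 17.4 CPM under NFAT2-CARIT. The groups did not overlap, and the fold changes of Vcl were 1.76 ± 0.14 and 1.45 ± 0.14. It passed the filter of 10 CPM only through the NFAT2 libraries, where it is high, so its change is given without a p-value. Vcl stayed the least abundant of the 52 genes per length in Control, at 0.725 CPM/kb. It overlaps the opposite-strand gene Ap3m1 over 38.9% of its stretches, and Ap3m1 was itself listed at 42.6 ± 3.59, 69.1 ± 1.80 and 66.1 ± 4.47 CPM. Whether counting used strand is not given in the sources used here, and the part of Ap3m1 reads in Vcl was not tested.

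Among crosslinkers and bundlers, 3 of 5 fell and 1 rose with each vector (40.5% and 43.3% of all genes tested fell, 31.6% and 32.1% rose). Lsp1, a leukocyte filament binder, was at 592, 587 and 594 CPM in Control, 293, 307 and 293 CPM under NFAT2-CA and 353, 366 and 363 CPM under NFAT2-CARIT. The 3 groups did not overlap. The fold changes were -0.99 ± 0.05 (adjusted p = 4e-11) and -0.71 ± 0.05 (adjusted p = 2.2e-09). Flna, filamin A, which joins filaments into a net, fell by 0.68 ± 0.06 (adjusted p = 3.7e-08) and 0.42 ± 0.06 (adjusted p = 9.3e-06). Lcp1, the leukocyte plastin, fell by 0.27 ± 0.06 (adjusted p = 0.00037) and 0.16 ± 0.06 (adjusted p = 0.014), the second call being lost without Control replicate 1 (-0.14, adjusted p = 0.056) or 2 (-0.14, adjusted p = 0.062) and under TMM factors over all genes (-0.11, adjusted p = 0.12) or the tested genes (-0.09, adjusted p = 0.16).

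The alpha-actinins, which bundle filaments, were near Control. Actn1 rose by 0.20 ± 0.06 with NFAT2-CA (adjusted p = 0.0054) and by 0.13 ± 0.06 with NFAT2-CARIT (adjusted p = 0.049). The second was lost under alternatives that include those without Control replicate 1 (adjusted p = 0.067), 2 (adjusted p = 0.057) or 3 (adjusted p = 0.11) and without NFAT2-CARIT replicate 2 (adjusted p = 0.15) or 3 (adjusted p = 0.17). Actn4 was at 243 ± 20.2, 226 ± 0.783 and 230 ± 8.96 CPM (SD, adjusted p = 0.17 and 0.31).

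The tropomyosins, which lie along filaments and decide which other proteins bind there, changed in opposite directions. Tpm3 was at 272, 283 and 282 CPM in Control, 211, 211 and 194 CPM under NFAT2-CA and 209, 217 and 221 CPM under NFAT2-CARIT. Tpm4 was at 269, 268 and 300 CPM in Control, 358, 355 and 338 CPM under NFAT2-CA and 527, 521 and 523 CPM under NFAT2-CARIT. For Tpm3 both NFAT2 groups were below Control, and for Tpm4 the groups lay in 3 ranges, with NFAT2-CARIT highest.

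Tpm3 fell by 0.44 ± 0.06 (adjusted p = 2.3e-06) and 0.37 ± 0.06 (adjusted p = 1.4e-05). Tpm4 rose by 0.33 ± 0.06 (adjusted p = 8.3e-05) and 0.91 ± 0.06 (adjusted p = 4.4e-10), and by 0.58 ± 0.06 between the vectors (adjusted p = 1.3e-06). The ratio of Tpm4 to Tpm3 CPM went from 1.00 ± 0.059 (SD) in Control to 1.71 ± 0.033 and 2.43 ± 0.083. Their summed level was 558 ± 21.0, 555 ± 20.8 and 739 ± 4.18 CPM. Tpm3 shares 53.3% of its stretches with Tpm3-rs7, and with the listed copies added the fold changes were -0.49 and -0.43 for Tpm3 and 0.29 and 0.89 for Tpm4.

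Among the small GTPases and their exchange factors, 4 of 6 fell with each vector (against 40.5% and 43.3% of all genes tested), and Dock2 changed most. Dock2, which activates Rac in lymphocytes, was at 693, 695 and 628 CPM in Control, 304, 301 and 318 CPM under NFAT2-CA and 268, 305 and 309 CPM under NFAT2-CARIT. All 6 NFAT2 libraries were below Control. The fold changes were -1.12 ± 0.06 (adjusted p = 1.7e-10) and -1.19 ± 0.06 (adjusted p = 7e-11). Dock8, which activates Cdc42, was at 415, 396 and 341 CPM in Control, 267, 273 and 296 CPM under NFAT2-CA and 200, 236 and 231 CPM under NFAT2-CARIT. It fell by 0.46 ± 0.08 (adjusted p = 7.3e-05) and 0.78 ± 0.08 (adjusted p = 1.5e-07), and its 3 groups did not overlap.

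Rac2, the Rac of blood cells, was at 1774, 1711 and 1558 CPM in Control, 1125, 1176 and 1098 CPM under NFAT2-CA and 1202, 1215 and 1186 CPM under NFAT2-CARIT. It fell by 0.57 ± 0.06 (adjusted p = 3.1e-07) and 0.48 ± 0.06 (adjusted p = 1.8e-06). Cdc42, which drives thin protrusions and polarity, was at 363, 339 and 362 CPM in Control, 297, 296 and 273 CPM under NFAT2-CA and 319, 298 and 311 CPM under NFAT2-CARIT. All NFAT2 libraries of Rac2 and Cdc42 were below Control. Cdc42 fell by 0.30 ± 0.06 (adjusted p = 0.00019) and 0.20 ± 0.06 (adjusted p = 0.0049), and the second call was lost under TMM factors over the tested genes (-0.12, adjusted p = 0.056).

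Rhoa, which drives contraction through its kinases, was at 375, 366 and 367 CPM in Control, 369, 373 and 336 CPM under NFAT2-CA and 376, 365 and 367 CPM under NFAT2-CARIT. The groups overlapped, with fold changes of -0.04 ± 0.06 (adjusted p = 0.5) and 0.00 ± 0.06 (adjusted p = 0.97). Rhoh, a GTPase without GTPase activity that T cell receptor signalling needs, was at 227, 217 and 242 CPM, 239, 259 and 275 CPM, and 221, 224 and 221 CPM in the 3 groups. It was called higher with NFAT2-CA (0.17 ± 0.06, adjusted p = 0.021), although the libraries overlapped, and gave -0.04 ± 0.06 with NFAT2-CARIT (adjusted p = 0.55). The call for Rhoh was lost without Control replicate 1 (adjusted p = 0.052) or 2 (adjusted p = 0.1) and without NFAT2-CA replicate 2 (adjusted p = 0.056) or 3 (adjusted p = 0.1).

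Between the vectors, 20 of the 52 genes were called. With NFAT2-CARIT against NFAT2-CA, 15 genes were higher (28.8%, against 15.1% of all genes tested), 5 were lower (9.62%, against 18.9%) and 32 did not pass. The median was 0.07, beside -0.02 over all genes tested, and among the 48 genes of at least 100 CPM 12 were higher (25%, against 20.5% of genes of like level) and 5 lower (10.4%, against 14.2%). The split of calls over all genes depends on the scaling: 1394 higher and 1748 lower as deposited (44.4% higher), and 1985 and 1314 under TMM factors (60.2% higher).

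The 15 higher genes were Actg1, Tmsb10, Wdr1, Coro1c, Cotl1, Arpc3, Capza2, Capzb, Myh9, Myl6, Myl12a, Msn, Flna, Lsp1 and Tpm4, and the 5 lower ones were Was, Gsn, Myl12b, Rhoh and Dock8. No gene of the 52 differed by 2-fold between the vectors (0.942% of all genes tested fell and 0.314% rose by that much). The libraries of the vectors lay apart for 34 of the 52 genes (65.4%, against 49%). The largest differences were those of Tpm4 (0.58), Actg1 (0.57), Tmsb10 (0.39), Gsn (-0.38), Dock8 (-0.33 ± 0.08, adjusted p = 0.0045) and Myl12b (-0.32 ± 0.07, adjusted p = 0.0017). Where a gene had fallen with each vector, the difference between the vectors could go either way. Lsp1 (0.28 ± 0.05, adjusted p = 0.00061), Flna (0.26 ± 0.06, adjusted p = 0.0033) and Msn (0.20 ± 0.06, adjusted p = 0.013) were nearer to Control with NFAT2-CARIT. Dock8, Myl12b and Was (-0.17 ± 0.06, adjusted p = 0.037) were farther from it. The Was call was lost under TMM factors over all genes (-0.12, adjusted p = 0.17) or the tested genes (-0.15, adjusted p = 0.057). It was also lost with no filter (adjusted p = 0.056), without trend and robust settings (adjusted p = 0.061) and without any single NFAT2-CARIT library. Of the genes named in this contrast, only Lsp1 passed between the vectors in the authors' deposited table (FDR 0.018).

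Among the genes with the deepest falls, Actb, Pfn1, Coro1a, Evl and Dock2 gave differences between the vectors of 0.09, 0.02, -0.18, -0.03 and -0.07, each with an SE of 0.05 to 0.07 and none called, while Lsp1 was called, as given above. Several of the smaller differences rest on single libraries. Without NFAT2-CA replicate 2, only 9 genes were higher, and Arpc3 (adjusted p = 0.064), Coro1c (adjusted p = 0.097), Cotl1 (adjusted p = 0.057), Myh9 (adjusted p = 0.055), Myl12a (adjusted p = 0.055), Myl6 (adjusted p = 0.05) and Was (adjusted p = 0.13) lost their calls. Without Control replicate 3, which enters only through the shared spread, 18 were higher and 10 lower. Rhoh lost its call without NFAT2-CA replicate 3 (-0.16, adjusted p = 0.067), and Msn without NFAT2-CARIT replicate 2 (0.19, adjusted p = 0.066). Of the 20 calls, 11 held under every alternative run.

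**Figure D5:**
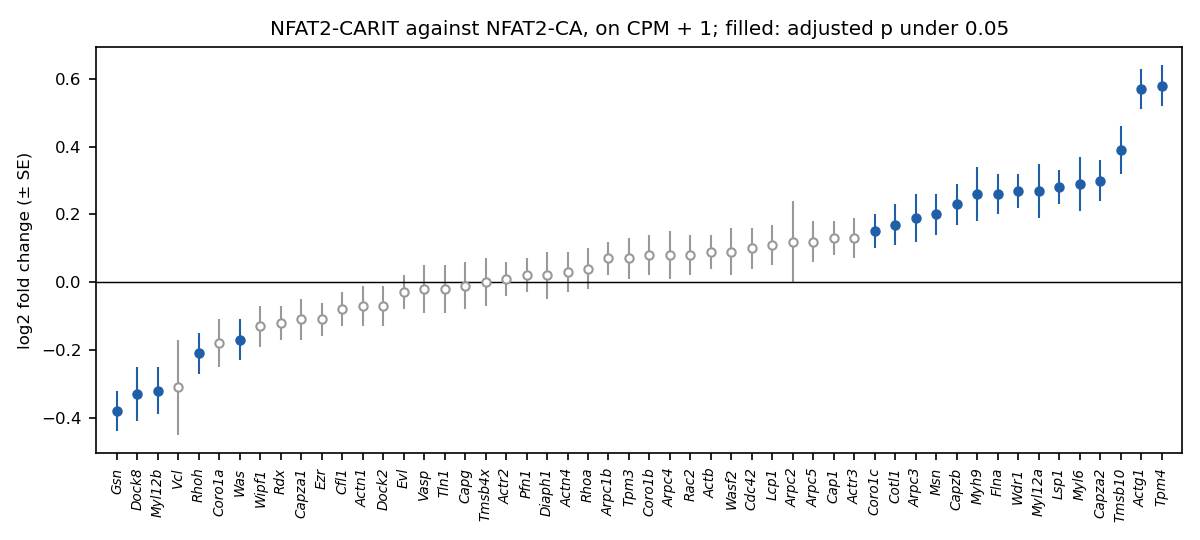
Log2 fold change of NFAT2-CARIT against NFAT2-CA (y axis, on CPM + 1, ± SE, 3 libraries per group) for the 52 genes in rising order. Filled points passed an adjusted p under 0.05: 15 to the right, up to Tpm4 at 0.58, and 5 to the left, down to Gsn at -0.38.

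In the authors' deposited table, 29 of the 52 genes (55.8%) were lower with NFAT2-CA at an FDR under 0.05 and 3 (5.77%) higher. Of all its 16477 genes with an FDR, 10.4% were lower and 11.4% higher. With NFAT2-CARIT, 28 (53.8%) were lower and 5 (9.62%) higher, against 13.5% and 12.1%. Those 16477 genes were not filtered at 10 CPM, as the 9233 genes tested above were. Shares over them are therefore not like those over the tested genes. Between the vectors the authors' deposited table gave 5 higher and 0 lower (1.19% and 1.65% of its genes), which were Actg1, Tmsb10, Wdr1, Lsp1 and Tpm4. At an unadjusted p under 0.05, 5 of the 52 genes (9.62%) were lower with NFAT2-CARIT than NFAT2-CA in the authors' deposited table, against 4.14% of all its genes. Of the limma calls, 32 of 38, 33 of 40 and 5 of 20 were also made, in the same direction, in the authors' deposited table. Limma gave 5 lower genes between the vectors where that table gave 0.

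By level per kilobase of merged exon in Control, the order ran from Tmsb4x (1790 CPM/kb) through Actb (1080), Rac2 (542), Coro1a (510), Actg1 (413), Pfn1 (316) and Tmsb10 (270) down to Coro1c (11.8) and Vcl (0.725). With NFAT2-CARIT, Actg1 (531 CPM/kb) stood beside Actb (536), above Rac2 (387) and Coro1a (228). The order depends on the length used, as merged exons can exceed a transcript (for Pfn1, 2405 against 861 bases). It also leaves out reads listed under copies. With the listed copies added, Actg1 averaged 2335 CPM in Control and 2912 CPM under NFAT2-CARIT, where Actb averaged 1435 CPM. Differences within groups followed gene length: across the 52 genes, the deviation of a library from its replicates correlated with log2 exon length at r = -0.57 for Control replicate 3, 0.66 for NFAT2-CA replicate 3 and -0.63 for NFAT2-CARIT replicate 1, beside -0.42, 0.44 and -0.39 over all genes tested with a length. The fold changes gave r = 0.18 for NFAT2-CA and 0.11 for NFAT2-CARIT, each against Control, and -0.15 between the vectors. These are correlations across genes of the same libraries, which are not independent replicates.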

How the data were processed

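The authors sequenced RNA from 9 libraries of mouse CD4+ T cells, in 3 groups of 3. The deposited expression values are in CPM for 16500 genes, and the authors added 0.0001 to each, as the values show; this was subtracted. The authors' deposited table of comparisons gives p-values with an FDR, ratios of group means and their log2, per the file headers, and came from DESeq2 in Partek 10 (build mm10), per the submitters' processing notes. How reads were aligned and counted, with which gene models, and whether by strand, is not given in the sources used here.

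Depth was estimated from the steps of low CPM values. Between 82.1% and 84.8% of values up to 1 CPM were whole reads within 0.1 read, under the 95% needed, so no count test was run. Genes at 10 CPM or more in at least 3 libraries (9233) were tested on log2(CPM + 1) with limma 3.58.1 (R 4.3.3): the 9 libraries were fitted together with a mean for each group, and variances were moderated with the trend and robust options, Benjamini-Hochberg adjustment, calls at 0.05. In a simulation of NFAT2-CA against Control (8926 genes), 34 of 50 genes changed by 0.3 were recovered, and 50 of 50 at each of 0.6, 1 and 2, with 10 false calls among 8726. Python 3.11.15, NumPy 2.4.6, pandas 2.3.3 and matplotlib 3.10.9 did the rest.

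The 52 genes, the role lists and the 86 further actin pathway genes were chosen with earlier results of these data known. The rule for values per library took the 2 called genes per role with the largest change against Control and no overlap. It also took the 6 largest differences between the vectors and 13 genes always given (Actb, Actg1, Cfl1, Pfn1, Tmsb4x, Tmsb10, Coro1a, Was, Wipf1, Rac2, Rhoa, Cdc42 and Rhoh). Of the genes it took, Cap1, Cotl1, Capza1, Vasp, Myl6, Ezr and Flna are given by fold change only. Gene spans, exon lengths and shared 75-base stretches are from GENCODE M21 on GRCm38, and upstream sequences from RefSeq on GRCm38.p6. The alternatives run included pseudocounts of 0.5 or 5, tests without a filter or with one of 50 CPM, TMM factors over all or tested genes, quantile normalization, totals without the 52 genes, only the 6 libraries compared, no trend or robust settings, a replicate block, listed copies added, and each library left out. Added after seeing the data were TMM factors over tested genes and the added copies.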

Additional observations from a re-analysis of the deposited data

Results flagged for a closer look

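Actg1 was called lower than Control with NFAT2-CA and higher with NFAT2-CARIT, and the difference between the vectors itself passed the test at 0.57 ± 0.06 on the log2 scale (limma, adjusted p = 3e-06), with no overlap between the libraries of the vectors. The alternatives run gave 0.52 to 0.62 for it. The authors' deposited table gives the same 3 comparisons of Actg1 as -0.21 (FDR 0.02), 0.36 (FDR 2.9e-06) and 0.57 (FDR 4.9e-13).

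Capza2 also had opposite calls against Control, and differed between the vectors by 0.30 ± 0.06 (limma, adjusted p = 0.00069). The authors' deposited table gives Capza2 as -0.14 (FDR 0.51) and 0.16 (FDR 0.38) against Control and 0.30 (FDR 0.24) between the vectors, so none of the 3 passed there.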

How the results depend on the processing

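No call against Control, and none between the vectors, changed direction under any alternative run. Of the 38 calls with NFAT2-CA, 35 held under every one, of the 40 with NFAT2-CARIT 34, and of the 20 between the vectors 11. The count of lower genes between the vectors, 5 as reported, was 3 under TMM factors, 8 under quantile normalization and 8 in the fit of only the 6 libraries compared; the cause was not tested. Leaving out 1 library at a time gave, with NFAT2-CA, 4 to 5 higher and 31 to 34 lower genes. With NFAT2-CARIT it gave 5 to 9 higher and 31 to 33 lower genes, the 5 without NFAT2-CARIT replicate 3. Between the vectors it gave 9 to 18 higher and 4 to 10 lower genes, with 9 higher without NFAT2-CA replicate 2 and 10 lower without Control replicate 3.

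Libraries that share a replicate number did not deviate together (r of -0.24 to 0.31 over same-numbered pairs), so the number is treated as a name only. With the replicate block the counts were 5 higher and 33 lower with NFAT2-CA, 6 and 32 with NFAT2-CARIT, and 13 and 5 between the vectors. It lost Myl12a (adjusted p = 0.052) and Actn1 (0.063) with NFAT2-CARIT, and Coro1c (0.059) and Arpc3 (0.069) between the vectors. The 9 libraries, 3 per group, and a depth at which 10 CPM is 199 to 381 reads limit which small changes can be detected. The simulation recovered 34 of 50 changes of 0.3 on the log2 scale, but 8726 of its 8926 genes were unchanged. In the data far more genes were called, which makes the adjusted cut less strict, so the simulated recovery does not carry over.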

Other observations

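Of 86 further actin pathway genes listed in the expression table, 79 were tested. With NFAT2-CA 52 fell and 12 rose, and with NFAT2-CARIT 49 fell and 11 rose, at medians of -0.39 and -0.30 on the log2 scale. The falls are 65.8% and 62% of these genes, against 40.5% and 43.3% of all genes tested, and the rises 15.2% and 13.9%, against 31.6% and 32.1%. The medians over all genes tested were -0.07 and -0.09. These counts include genes that passed the filter only through the group where they are high, such as Diaph3, Diaph2, Cdc42ep3 and Abi3. Swap70, a Rac-binding protein of lymphocytes, rose by 2.41 ± 0.07 (limma, adjusted p = 5.5e-14) and 2.88 ± 0.07 (adjusted p = 5.7e-15). Anln, anillin, which organises the ring of dividing cells, rose by 2.44 ± 0.08 (adjusted p = 2.7e-13) and 2.95 ± 0.08 (adjusted p = 2.4e-14).

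Diaph3, a formin, was at 7.95, 6.84 and 7.87 CPM in Control, 26.8, 25.0 and 25.8 CPM under NFAT2-CA and 24.4, 27.6 and 29.6 CPM under NFAT2-CARIT. It passed the filter of 10 CPM only through the NFAT2 libraries, and Diaph2, another formin (means of 13.4, 7.70 and 3.78 CPM), and Cdc42ep3, a Cdc42 effector (5.03 and 6.04 CPM on average in the NFAT2 groups), only through Control, so their levels are given without a test. The formin Fhod1, above 10 CPM in every library, fell by 1.20 ± 0.08 (limma, adjusted p = 8.4e-10) and 1.05 ± 0.08 (adjusted p = 3.7e-09). The exchange factor Vav3 rose by 1.17 ± 0.07 (adjusted p = 1.4e-10) and 1.03 ± 0.07 (adjusted p = 7e-10).

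Among the other lists, 7 of 11 genes of the WAVE complex and other Arp2/3 regulators fell with NFAT2-CA and 6 with NFAT2-CARIT, with 0 and 1 rising. The shares over all genes tested were 40.5% and 43.3% for falls and 31.6% and 32.1% for rises. Cyfip1, at 24.3 CPM on average in Control, gave -0.87 and -1.10. Cyfip2, of the same list, averaged 876, 942 and 926 CPM in Control, NFAT2-CA and NFAT2-CARIT and was not called (limma, adjusted p = 0.18 and 0.29). Of the cofilin kinases, phosphatases and related depolymerizers, 8 of 14 fell and 2 rose with NFAT2-CA, and 6 fell and 3 rose with NFAT2-CARIT, the last fall count being near the share of all genes tested that fell. Twf2, a twinfilin that binds monomers, gave the deepest fall of that list, at -1.44 and -1.63. Dstn, which encodes destrin, the relative of cofilin, rose by 0.41 ± 0.09 (limma, adjusted p = 0.00048) and 0.55 ± 0.09 (adjusted p = 2.1e-05), where Cfl1 fell. Myo1f, a myosin I of blood cells, fell by 1.88 ± 0.13 (adjusted p = 1.4e-08) and 2.04 ± 0.13 (adjusted p = 4.9e-09), and Stk10, a kinase of ERM proteins, by 1.17 ± 0.07 (adjusted p = 2.1e-10) and 1.18 ± 0.07 (adjusted p = 1.6e-10).

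Elmo1, the partner of Dock2, was at 159, 163 and 132 CPM in Control, 175, 184 and 192 CPM under NFAT2-CA and 104, 117 and 124 CPM under NFAT2-CARIT. It rose with NFAT2-CA (0.28 ± 0.08, limma, adjusted p = 0.005), fell with NFAT2-CARIT (-0.39 ± 0.08, adjusted p = 0.00035) and differed between the vectors by -0.67 ± 0.08 (adjusted p = 1.1e-05). Dock2 was called lower with each vector. Pak1, a kinase downstream of Rac and Cdc42, rose with NFAT2-CA (0.65 ± 0.08, adjusted p = 2.4e-06), gave -0.14 ± 0.08 with NFAT2-CARIT (adjusted p = 0.14) and differed by -0.78 ± 0.08 (adjusted p = 2.2e-06). The genes named here were chosen with their values known.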
